A study of Mus musculus with 6 samples.

Results

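The proteasome genes comprise the 48 genes, of 23185 named genes on the arrays, whose current symbol matches Psm, a letter from a to g and a number. They encode the subunits, activators, inhibitor and assembly chaperones of the proteasome. The rule also takes in Psmc3ip, a meiotic recombination cofactor, and Psme3ip1, a partner of an activator, which are not subunits. Of the 48 subunit, activator and chaperone genes listed by role, 46 were measured, and the constitutive beta subunit genes Psmb3 and Psmb5 were not analysed here. The levels come from 3 Merit40-/- and 3 WT arrays (Affymetrix GeneChip Mouse Gene 2.0 ST) of hematopoietic stem cells (HSCs) that were double-sorted from adult bone marrow of young mice as CD150+CD48- LSK cells. Merit40-/- mice carry the loss of Merit40, whose gene is Babam1, and WT mice are their wild-type comparison. The labels give neither the strain, nor the construction of the allele, nor the number of mice behind each array, so the p-values measure the spread between these arrays.

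The proteasome degrades proteins that carry ubiquitin chains. Its barrel, the 20S core, stacks alpha rings, which gate the entry, on beta rings, which hold the catalytic sites. The 19S regulatory particle caps the core, and it is built of a base with ATPases that unfold substrates and a lid that removes ubiquitin. In blood cells, and more so under interferon, the 3 catalytic beta subunits can be replaced by those of the immunoproteasome (Psmb8, Psmb9 and Psmb10), and the PA28 activator (Psme1 and Psme2) can dock in place of the 19S particle. Merit40 belongs to complexes that use the deubiquitinase Brcc3, a metalloprotease of the same family as Psmd14, the deubiquitinase of the proteasome lid. The comparison asks how the loss of Merit40 affects transcript levels in HSCs.

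The deposited values are log2 levels, 1 per gene and array, scaled to a common distribution by RMA, and array medians lay between 4.91 and 4.97. Babam1 read 4.29, 3.87 and 4.01 on the Merit40-/- arrays, against 7.91, 8.04 and 8.05 on the WT arrays (difference -3.94, SE 0.14, adjusted p = 5.04e-05 in limma). Single arrays stood apart. All 10 skeletal muscle markers were highest on Merit40-/- replicate 1, with a mean level over the list of 8.80 there, 5.04 and 4.85 on the other Merit40-/- arrays and 4.65 to 4.92 on the WT arrays. Of 7 osteoclast markers, 5 were highest on Merit40-/- replicate 3, where the list averaged 5.53, against 4.16 to 4.20 on the other Merit40-/- arrays and 3.998 to 4.16 on the WT arrays. Of the 7 HSC markers listed, 5 were measured. The HSC markers Kit and Hlf read at least 10.3 on every array and the sorting marker gene Slamf1 (CD150) at least 7.71. Procr read 7.96 to 8.45 and Mecom 8.41 to 9.11, and 4 of the 5 HSC markers were highest on Merit40-/- replicate 1. All 3 measured erythroid markers had lower means in Merit40-/-, as 48.5% of all genes did. Their list averaged 6.90 to 7.17 in Merit40-/- and 6.99 to 7.43 in WT. Hbb-b1 read 9.80, 10.46 and 9.49 in Merit40-/-, against 10.63, 10.28 and 9.39 in WT. The 4 T cell markers averaged 3.42 to 3.97 in Merit40-/- and 3.599 to 3.69 in WT, and 3 of them were highest on Merit40-/- replicate 1, where Cd3d read 5.08.

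No proteasome gene differed between the genotypes at the threshold. In limma, fitted and adjusted over all 23185 named genes, 0 of the 48 genes had an adjusted p under 0.05, with a smallest adjusted p of 0.999. The share over all genes was 0.00431%, which is Babam1 alone. At an unadjusted p under 0.05 there were also 0 of the 48 genes, against 4.22% of all genes. The mean was lower in Merit40-/- for 27 of the 48 genes and higher for 21, and 48.5% of all genes were lower. The median difference (Merit40-/- minus WT) was -0.01 over the proteasome genes and 0.01 over all genes on the log2 scale. For 1 proteasome gene, Psme1, all Merit40-/- arrays lay below all WT arrays (2.08%, against 4.22% of all genes), and for 0 genes they lay above (4.84% of all genes). In bulk RNA, fewer cells of a type and less RNA per cell cannot be told apart.

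The precision of these values bounded the differences. Both ends of the 95% interval stayed inside a 2-fold change for 48 of 48 proteasome genes, compared with 96.4% of all genes, and inside a 1.5-fold change for 44 of 48, compared with 73.2% of all genes. The genes outside the narrower bound were Psma5, Psmd2, Psmd5 and Psma8. The lowest bound of any interval was -0.76, for Psmd5, and the highest was 0.78, for Psma8. The proteasome genes gave mostly bright probe sets: 46 of 48 lay above the median level of all genes (4.93) and 33 lay in the top 10%. A probe set's level is not an amount of transcript that can be set against another gene's.

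**Figure D1:**
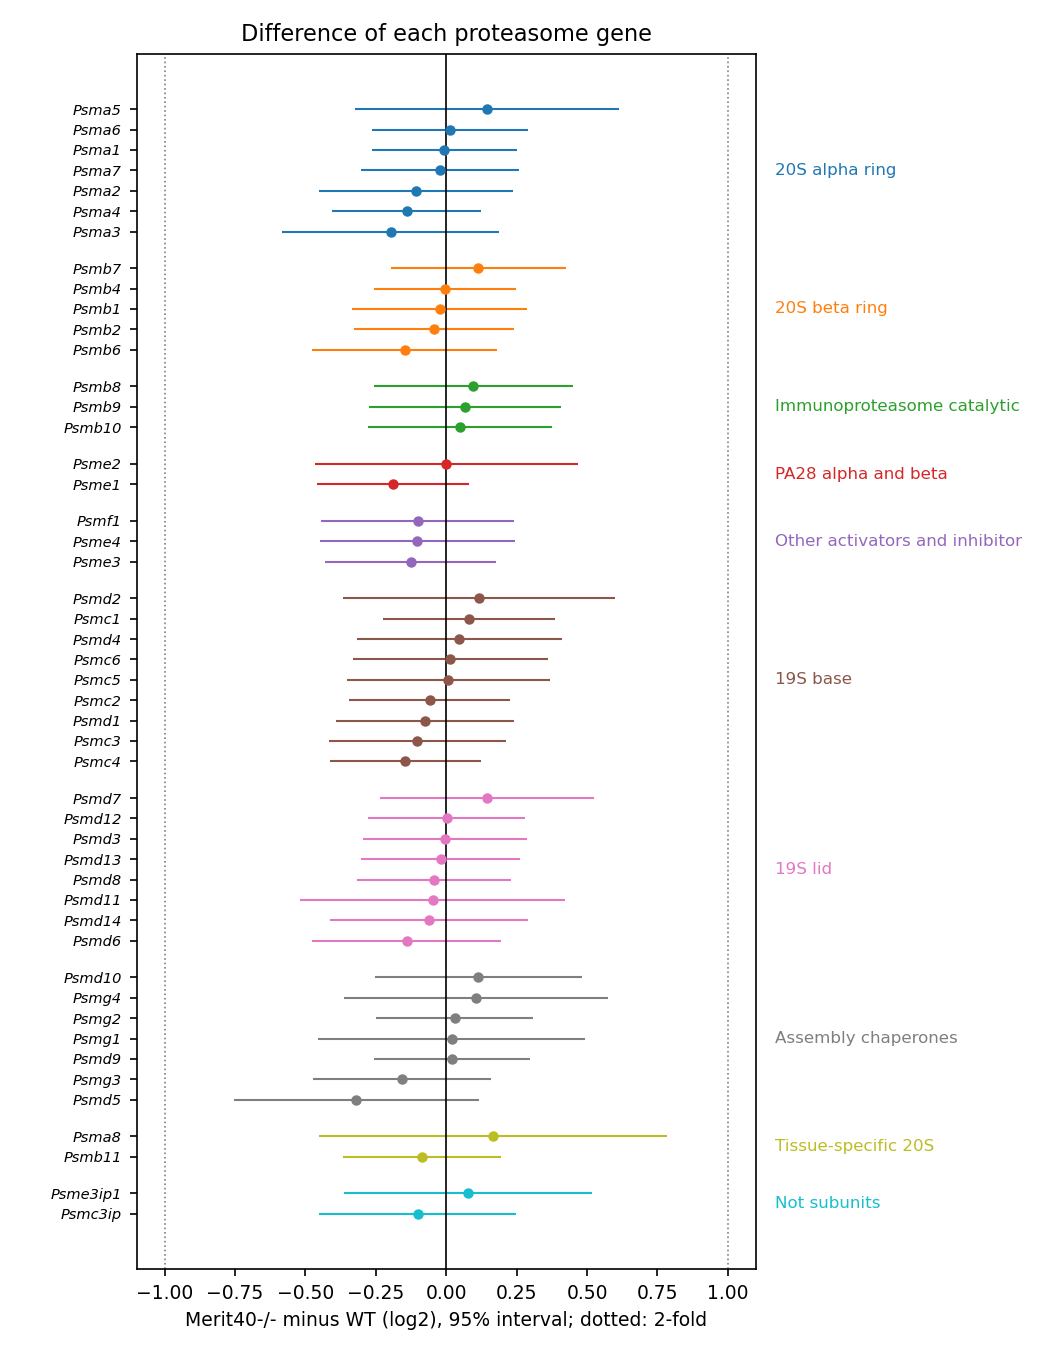
Difference of each of the 48 proteasome genes (points, Merit40-/- minus WT, log2) with its 95% interval from limma (bars), grouped by role. The dotted lines mark 2-fold, and all 48 intervals include 0 and lie inside the dotted lines.

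The alpha ring of the 20S core had 5 of 7 genes lower and 2 higher, with a median difference of -0.02. Psma3, one of its structural subunits, read 8.45, 8.64 and 8.82 on the Merit40-/- arrays, against 9.06, 8.89 and 8.55 on the WT arrays. The genotypes overlapped, since WT replicate 3 fell between Merit40-/- replicates 1 and 2, and the difference was -0.20 (SE 0.17, adjusted p = 0.999 in limma). Psma4 read 8.80, 8.76 and 8.64 in Merit40-/-, against 8.93, 8.90 and 8.79 in WT (difference -0.14, SE 0.11). Here only Merit40-/- replicate 1 and WT replicate 3 overlapped, by less than the SD of either genotype. Psma6 averaged 10.53 ± 0.14 in Merit40-/- and 10.51 ± 0.03 in WT, and Psma1 averaged 8.96 ± 0.07 and 8.96 ± 0.06 (SD, n = 3 each). Psma7 and Psma2 differed by -0.02 and -0.11. Psma5 was the one alpha ring gene with a signal near the bottom of the arrays, at 2.28, 2.97 and 2.96 in Merit40-/-, against 2.78, 2.50 and 2.50 in WT. Its mean level lay at the 3.14th percentile of all genes, so its difference of 0.15 (SE 0.20) is a difference between readings of low signal.

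The constitutive beta ring had 4 of 5 genes lower and 1 higher, with a median difference of -0.02. Psmb4, a structural subunit, was the steadiest proteasome gene. It read 10.41, 10.46 and 10.51 in Merit40-/-, against 10.52, 10.46 and 10.42 in WT, a range of 0.109 over all 6 arrays. The structural subunit genes Psmb1 and Psmb2 differed by -0.02 and -0.04. Psmb6, the catalytic subunit with caspase-like activity, read 9.66, 9.81 and 10.02 in Merit40-/-, against 9.82, 9.96 and 10.14 in WT. The genotypes overlapped, with Merit40-/- replicate 3 above WT replicates 1 and 2, and the difference was -0.15 (SE 0.14). Psmb7, the catalytic subunit with trypsin-like activity, read 9.89, 9.90 and 10.18 in Merit40-/-, against 9.73, 9.90 and 9.997 in WT (difference 0.11, SE 0.14). The 2 constitutive catalytic subunits measured thus had means on opposite sides of 0, each within the spread of its arrays.

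The 3 catalytic subunits of the immunoproteasome had slightly higher means in Merit40-/-, which rested on 1 array. Psmb8, which takes the place of the chymotrypsin-like subunit Psmb5, read 8.63, 8.75 and 9.07 in Merit40-/-, against 8.69, 8.90 and 8.59 in WT (difference 0.10, SE 0.15, adjusted p = 0.999 in limma). Psmb9, which replaces Psmb6, read 10.63, 10.92 and 11.13 in Merit40-/-, against 10.82, 10.79 and 10.87 in WT (difference 0.07, SE 0.15). Psmb10, which replaces Psmb7, read 9.22, 9.53 and 9.62 in Merit40-/-, against 9.34, 9.53 and 9.35 in WT (difference 0.05, SE 0.14). All 3 genes were highest on Merit40-/- replicate 3, and Psmb9 and Psmb10 were lowest on Merit40-/- replicate 1, so the knockout arrays enclosed the WT arrays for these 2 genes. Without Merit40-/- replicate 1, the array with high skeletal muscle markers, the differences were 0.19, 0.20 and 0.17 for Psmb8, Psmb9 and Psmb10. Without Merit40-/- replicate 3 they were -0.031, -0.053 and -0.033. That array is the one with high osteoclast markers, and 2 of 3 B cell markers were highest on it too (list mean 5.88 there, 5.35 and 4.79 on the other Merit40-/- arrays, 4.97 to 5.21 on the WT arrays). The B cell genes Cd79a and Ms4a1 read 4.59 and 4.34 on that array, below the median of all genes. The third B cell gene, Cd79b, read 8.92, 8.34 and 8.71 in Merit40-/-, against 8.23, 8.28 and 8.31 in WT. Its Merit40-/- arrays all lay above the WT arrays (difference 0.39, SE 0.16, unadjusted p = 0.0413, adjusted p = 0.999 in limma). The macrophage and dendritic cell list, whose cells are rich in immunoproteasome, averaged 5.39 to 5.67 over its 8 genes in Merit40-/- and 5.43 to 5.83 in WT. Of these genes, 4 were lower and 4 higher in Merit40-/-. For H2-Eb1 all Merit40-/- arrays lay below the WT arrays (difference -0.45, SE 0.16, unadjusted p = 0.0251, adjusted p = 0.999 in limma). The part of the cells of these lists in the immunoproteasome values was not tested.

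**Figure D2:**
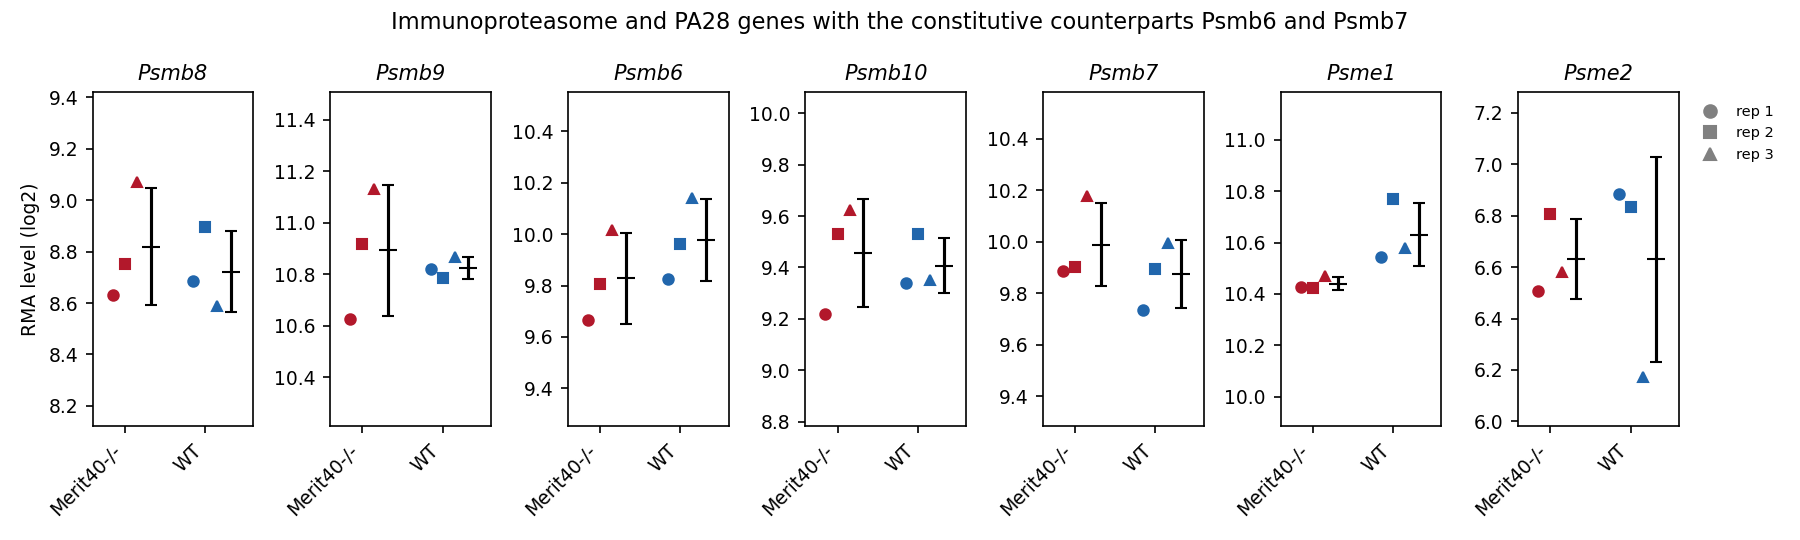
Log2 RMA levels of the immunoproteasome and PA28 genes and of the constitutive counterparts Psmb6 and Psmb7 on each array (circle, square and triangle for replicates 1, 2 and 3; red for Merit40-/-, blue for WT), with mean and SD in black. Each panel has its own level range of the same width. The genotypes overlap in every panel but that of Psme1, and the red triangle is the highest array for Psmb8, Psmb9, Psmb10 and Psmb7.

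Constitutive and inducible subunits were compared at the transcript level through the within-array log2 ratio of each pair. The exchange of the subunits in the particle was not measured. For Psmb9 over Psmb6 the log2 ratio was 0.96, 1.11 and 1.12 on the Merit40-/- arrays, against 0.99, 0.82 and 0.73 on the WT arrays. The ratio was higher in Merit40-/- by 0.22 on average, with 1.06 ± 0.09 in Merit40-/- and 0.85 ± 0.14 in WT (SD, n = 3 each), and Merit40-/- replicate 1 overlapped with WT replicate 1. For Psmb10 over Psmb7 it was -0.67, -0.37 and -0.56 in Merit40-/-, against -0.39, -0.36 and -0.65 in WT, lower by 0.06 on average (difference -0.06). The mean changes of both ratios thus had opposite signs, but that of Psmb10 over Psmb7 was not stable. With 1 array left out it lay between -0.15 and 0.0032, and that of Psmb9 over Psmb6 between 0.15 and 0.29. In the latter pair Psmb6 differed by -0.15 and Psmb9 by 0.07. No such ratio was formed for Psmb8. These ratios compare readings of different probe sets, so only their change between genotypes has a meaning, and they were not tested.

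The promoters of the immunoproteasome genes are shown with that of Psmb6, since these genes are read against each other above. The sequences are the 250 bases before the RefSeq start in GRCm38.p6. Capitals mark the letters of 2 motifs searched on both strands: GAAA followed by any 2 bases and a further GAAA, an element read by interferon regulatory factors, and TGACNNNGC, the core of the antioxidant response element read by the NRF1 and NRF2 factors.
Psmb8, chr17:34197945-34198194, plus strand: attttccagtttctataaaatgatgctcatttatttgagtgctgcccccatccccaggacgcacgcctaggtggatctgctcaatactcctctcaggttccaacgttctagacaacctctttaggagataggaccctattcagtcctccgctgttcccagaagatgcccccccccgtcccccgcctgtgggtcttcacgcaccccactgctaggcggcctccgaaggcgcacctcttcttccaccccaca
Psmb9, chr17:34187331-34187580, minus strand: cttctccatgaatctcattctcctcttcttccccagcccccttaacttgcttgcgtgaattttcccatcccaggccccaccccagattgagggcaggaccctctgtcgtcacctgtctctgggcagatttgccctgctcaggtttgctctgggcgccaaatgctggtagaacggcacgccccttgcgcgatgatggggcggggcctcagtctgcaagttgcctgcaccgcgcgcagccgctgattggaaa
Psmb10, chr8:105938393-105938642, minus strand: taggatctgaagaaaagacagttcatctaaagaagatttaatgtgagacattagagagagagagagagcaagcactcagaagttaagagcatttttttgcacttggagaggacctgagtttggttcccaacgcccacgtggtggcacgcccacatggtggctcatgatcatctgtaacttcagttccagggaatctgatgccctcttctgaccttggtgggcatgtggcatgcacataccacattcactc
Psmb6, chr11:70525107-70525356, plus strand: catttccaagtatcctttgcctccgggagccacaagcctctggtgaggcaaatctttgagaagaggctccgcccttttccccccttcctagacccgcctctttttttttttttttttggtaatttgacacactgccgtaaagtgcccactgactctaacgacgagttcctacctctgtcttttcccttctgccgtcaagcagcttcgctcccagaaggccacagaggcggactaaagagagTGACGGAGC
Psmb6 held a match to the antioxidant core 9 bases before its start. The windows of Psmb8, Psmb9 and Psmb10 held no match to these letters. RefSeq windows were found for 40 of the 48 genes, with 44 starts. The antioxidant core was present in 4 of the 44 windows (9.09%), those of Psmb6, Psmc6, Psmd12 and Psmd9, compared with 10.2% of 32851 windows of the same length over all genes, and the interferon regulatory element in 2 (4.55%), those of Psmd4 and Psmd9, compared with 2.98%. The matches describe these letters in these windows.

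The PA28 genes had the only proteasome gene whose genotypes did not overlap. Psme1, the alpha chain of the activator, read 10.43, 10.42 and 10.47 in Merit40-/-, against 10.54, 10.77 and 10.58 in WT. All 3 Merit40-/- arrays lay below the lowest WT array, at 10.44 ± 0.03 in Merit40-/- and 10.63 ± 0.12 in WT (SD, n = 3 each), a 1.14-fold lower mean. The difference of -0.19 (SE 0.12, 95% interval -0.46 to 0.08) did not pass the test, with an unadjusted p of 0.143 and an adjusted p = 0.999 in limma. Psme2, the beta chain that assembles with Psme1, read 6.51, 6.80 and 6.58 in Merit40-/-, against 6.88, 6.84 and 6.17 in WT, with means of 6.63 in both. WT replicate 3 was the low array of this gene, and without it the difference was -0.23. Without WT replicate 1 the difference was 0.13, so its sign depended on the array left out.

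The other activators and the inhibitor were lower in Merit40-/- in 3 of 3 cases, each within its arrays' spread. Psme3, which forms the nuclear PA28 gamma activator, read 9.50, 9.34 and 9.72 in Merit40-/-, against 9.64, 9.69 and 9.60 in WT (difference -0.13, SE 0.13). Psme4, the PA200 activator, read 7.91, 7.63 and 7.79 in Merit40-/-, against 8.06, 7.95 and 7.63 in WT (difference -0.10, SE 0.15). Psmf1, which encodes the proteasome inhibitor PI31, read 7.82, 7.81 and 7.48 in Merit40-/-, against 7.73, 7.67 and 8.01 in WT (difference -0.10, SE 0.15). Merit40-/- replicate 3 was the lowest array of Psmf1 and WT replicate 3 the highest, and for the other 4 arrays the Merit40-/- values were the higher ones.

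The base of the 19S particle had 4 of 9 genes lower and 5 higher, with a median difference of 0.01. Among its ATPases, Psmc4 read 8.90, 8.88 and 9.01 in Merit40-/-, against 8.96, 9.15 and 9.12 in WT (difference -0.14, SE 0.12), with Merit40-/- replicate 3 above WT replicate 1. The ATPase genes Psmc1, Psmc2, Psmc3, Psmc5 and Psmc6 differed by 0.08, -0.06, -0.10, 0.01 and 0.01. Psmd2, a scaffold of the base that binds ubiquitin-like domains, read 8.77, 8.84 and 8.55 in Merit40-/-, against 8.84, 8.85 and 8.11 in WT (difference 0.12, SE 0.21). Its higher Merit40-/- mean came from the low WT replicate 3, without which the difference was -0.13. The scaffold gene Psmd1 averaged 8.83 in Merit40-/- and 8.90 in WT, and the ubiquitin receptor gene Psmd4 differed by 0.05.

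The lid had 6 of 8 genes lower and 2 higher, with a median difference of -0.03. Psmd14, the deubiquitinase that shares its enzyme family with Brcc3, read 8.79, 8.98 and 8.73 in Merit40-/-, against 8.73, 9.17 and 8.79 in WT. The genotypes overlapped, with WT replicate 2 the highest of the 6 arrays, and the difference was -0.06 (SE 0.15, 95% interval -0.41 to 0.29). Psmd7, its inactive partner in the lid, read 8.69, 8.84 and 9.01 in Merit40-/-, against 8.63, 8.998 and 8.47 in WT (difference 0.14, SE 0.17), the highest difference of the lid. Psmd6, a structural subunit, had the lowest at -0.14 (SE 0.15), with 8.83, 9.03 and 9.31 in Merit40-/-, against 9.21, 9.25 and 9.12 in WT. Merit40-/- replicates 1 and 3 were the lowest and the highest of its 6 arrays. The structural lid genes Psmd3, Psmd8, Psmd11, Psmd12 and Psmd13 differed by -0.0043, -0.04, -0.05, 0.0018 and -0.02.

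The assembly chaperones had 2 of 7 genes lower and 5 higher, with a median difference of 0.02, and held the largest difference of all 48 genes. Psmd5, a chaperone that binds the base before the 19S particle closes, read 7.16, 6.89 and 6.83 in Merit40-/-, against 7.17, 7.67 and 7.01 in WT. Merit40-/- replicate 1 was level with WT replicate 1 and above WT replicate 3. The difference was -0.32 (SE 0.19, 95% interval -0.76 to 0.12, adjusted p = 0.999 in limma), and WT replicate 2 decided its size, since without that array it was -0.13. Psmd10, a base chaperone also known as gankyrin, read 7.78, 7.88 and 7.48 in Merit40-/-, against 7.43, 7.83 and 7.53 in WT (difference 0.11, SE 0.16). Psmd9, another base chaperone, differed by 0.02. Psmg1 and Psmg2, which pair to build the alpha ring, differed by 0.02 and 0.03, and Psmg3 and Psmg4, the second such pair, by -0.16 and 0.11.

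The remaining genes are tissue-specific subunits and the genes that are not subunits. Psma8, the alpha subunit of testis, read 7.28, 6.85 and 7.41 in Merit40-/-, against 6.87, 7.60 and 6.56 in WT (difference 0.17, SE 0.27). Its level lay at the 74.9th percentile of all genes, and its range of 1.04 over the 6 arrays was the widest of the 48 genes. Psmb11, the beta subunit of thymic epithelium, stayed at low signal, with 3.13, 3.40 and 3.35 in Merit40-/-, against 3.42, 3.39 and 3.32 in WT (difference -0.08, SE 0.12). Psmc3ip read 6.48, 6.62 and 6.95 in Merit40-/-, against 6.76, 6.92 and 6.67 in WT (difference -0.10, SE 0.15). Psme3ip1 read 8.92, 9.29 and 8.58 in Merit40-/-, against 8.67, 9.002 and 8.89 in WT (difference 0.08, SE 0.19).

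The arrays of 1 genotype differed from each other in their proteasome genes. As mean deviations from the WT mean of each gene, the 48 genes stood at -0.08, -0.04 and 0.05 on Merit40-/- replicates 1, 2 and 3, against -0.00096, 0.12 and -0.11 on WT replicates 1, 2 and 3. The WT arrays thus spanned the Merit40-/- arrays. WT replicate 2 was the lowest array for 0 of the 48 genes, compared with 17.1% of all genes, and the highest for 16 (33.3%, compared with 15.01% of all genes). WT replicate 3 was the lowest for 14 (29.2%, compared with 15.4% of all genes) and the highest for 2 (4.17%, compared with 17.3%). Merit40-/- replicate 1 was the lowest for 16 (33.3%, compared with 17.8% of all genes), and Merit40-/- replicate 3 was the highest for 14 (29.2%, compared with 19.3%). Among the 17 genes of the 19S base and lid, WT replicate 2 was the highest for 8 (47.1%, compared with 15.01% of all genes). WT replicate 3 was the lowest for 7 of them (41.2%, compared with 15.4% of all genes). These counts are over genes of the same arrays, which are not independent replicates.

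**Figure D3:**
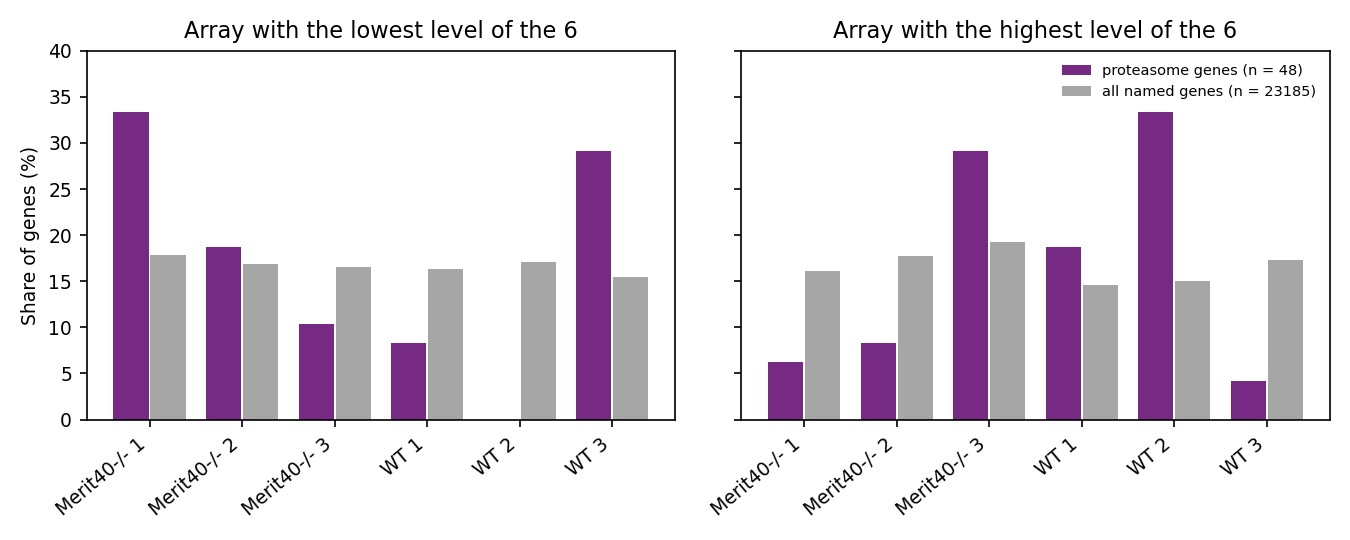
Share of the 48 proteasome genes (purple) and of all 23185 named genes (grey) for which each array was the lowest (left) or the highest (right) of the 6. The grey shares lie between 14.6% and 19.3%, while the purple shares reach 33.3% for Merit40-/- replicate 1 (lowest) and WT replicate 2 (highest).

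The 20S core genes of both rings averaged -0.11, -0.06 and 0.07 on Merit40-/- replicates 1, 2 and 3, against 0.02, 0.04 and -0.06 on the WT arrays. The 19S base and lid averaged -0.06, -0.03 and 0.04 on the Merit40-/- arrays, against 0.02, 0.13 and -0.15 on the WT arrays. The 3 immunoproteasome subunits averaged -0.16, 0.08 and 0.29 on the Merit40-/- arrays, against -0.04, 0.09 and -0.05 on the WT arrays. This span within Merit40-/- was wider than in the 20S or 19S genes. It is a mean over 3 genes, against 12 and 17, and a mean over fewer genes can vary more between arrays. For the 3 other activators and inhibitor, the Merit40-/- means were -0.0324, -0.185 and -0.113, against 0.0349, -0.0044 and -0.0305 in WT, so the genotypes met without overlapping, although each of these genes overlapped singly. The median SD between arrays of a genotype was 0.130 for the 20S genes, 0.153 for the 19S genes and 0.183 for the 5 immunoproteasome and PA28 genes, compared with 0.183 for all genes. Without 1 array, the number of the 48 genes lower in Merit40-/- lay between 20 (without WT replicate 2) and 37 (without WT replicate 3), compared with 27 with all arrays.

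**Figure D4:**
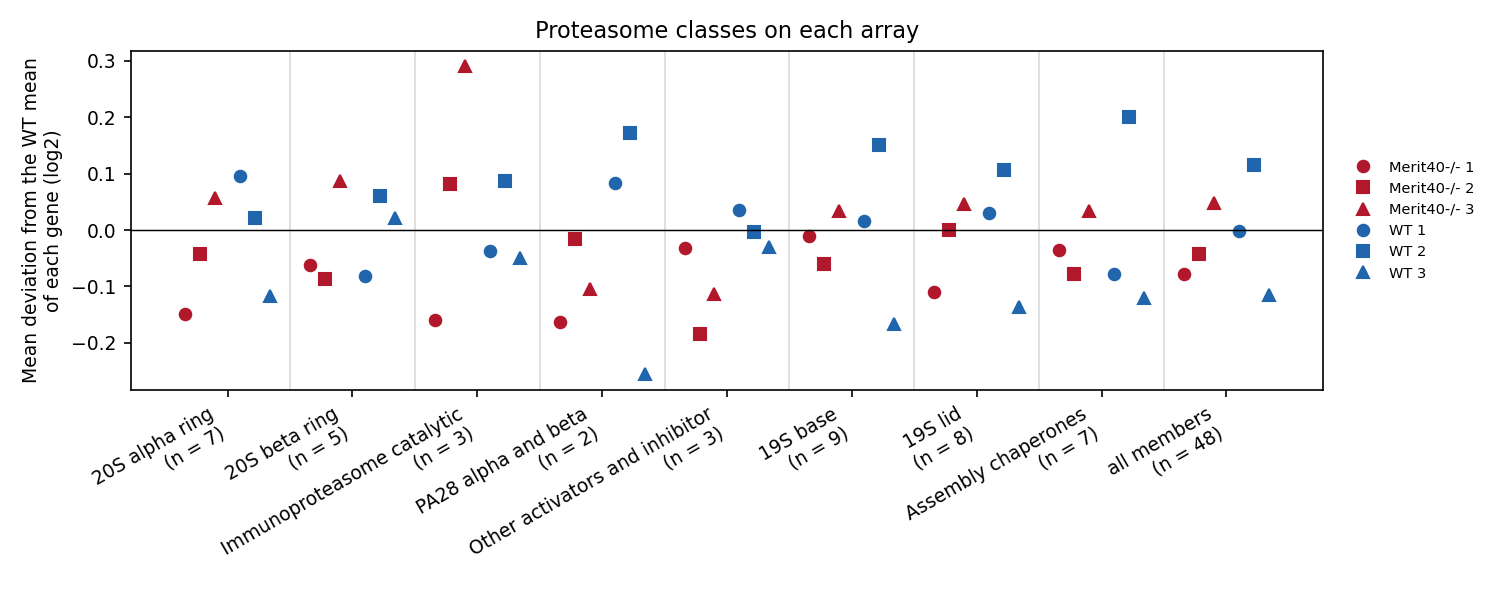
Mean deviation of the proteasome classes named on the axis from the WT mean of its genes (log2) on each array, with Merit40-/- in red to the left of WT in blue, and circle, square and triangle for replicates 1, 2 and 3. The genotypes overlap except in the other activators and inhibitor, where the highest Merit40-/- array stands at -0.0324 and the lowest WT array at -0.0305, and for the 3 immunoproteasome subunits the Merit40-/- arrays spread from -0.16 to 0.29.

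Genes that work with the proteasome gave 0 adjusted calls in limma as well. Of 11 measured proteasome-associated genes, 7 were lower and 4 higher (median -0.06). At an unadjusted p under 0.05 in limma there was 1, compared with 4.22% of all genes. This gene, Zfand2a, an arsenite-inducible partner of the 19S particle, read 6.20, 5.32 and 5.86 in Merit40-/-, against 6.37, 6.25 and 6.56 in WT. All Merit40-/- arrays lay below the WT arrays, as they did for 4.22% of all genes (difference -0.60, SE 0.22, unadjusted p = 0.0240, adjusted p = 0.999 in limma). Pomp, which matures the beta ring, differed by -0.18 (SE 0.12). Of 10 ubiquitin shuttle and unfoldase genes, 4 were lower and 6 higher (median 0.04), from Faf2 at -0.21 to the unfoldase gene Vcp at 0.20. Of 7 genes of the NRF1 pathway, which raises proteasome transcription when the proteasome is inhibited, 1 was lower and 6 were higher (median 0.13, compared with 0.01 over all genes). As mean deviations from the WT mean of each gene, these genes stood at 0.13, 0.05 and 0.07 on Merit40-/- replicates 1, 2 and 3. On WT replicates 1, 2 and 3 they stood at -0.13, 0.05 and 0.07, so WT replicate 1 was the low array and the genotypes overlapped. Nfe2l1, the gene of NRF1, differed by 0.12 (SE 0.12), and Sel1l, of the endoplasmic reticulum ligase that turns NRF1 over, read 7.80, 7.70 and 7.68 in Merit40-/-, against 7.51, 7.47 and 7.63 in WT (difference 0.19, SE 0.11, unadjusted p = 0.136, adjusted p = 0.999 in limma). Mafk, a DNA-binding partner of NRF1, had the lowest difference at -0.17. Of the ubiquitin and E1 list, Uba6 alone of 6 genes was analysed (difference 0.08).

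The partners and inducers of the immunoproteasome had 4 of 7 genes lower and 3 higher, with a median of -0.01. The peptide transporter gene Tap2 had the highest difference, 0.11 (SE 0.20), and Nlrc5, the transactivator of class I genes, the lowest at -0.08 (SE 0.20). Tap1, the neighbour of Psmb9 in the class II region, differed by -0.03. Irf1, which induces the immunoproteasome genes, read 7.31, 7.34 and 7.77 in Merit40-/-, against 7.63, 7.33 and 7.23 in WT (difference 0.08, SE 0.17). It was highest on Merit40-/- replicate 3, as were the 3 immunoproteasome subunits, while Tap1 and Tap2 were highest on WT replicate 2. Merit40-/- replicate 3 was the highest array for 29.2% of the 48 proteasome genes and for 19.3% of all genes.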

How the data were processed

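The deposited values are log2 expression levels. The submitters' processing notes name RMA and affy; for the versions and the chip definition, nothing is stated in the labels. RMA removes overall differences in RNA yield. Per the labels' protocols, 50 ng of total RNA per array was amplified with the NuGEN Pico kit. Of 25206 probe sets, named by Entrez Gene number, 23185 had 1 current symbol (RefSeq table, GRCm38.p6, used for names and promoters). The other 2021 were left unnamed here, any with several symbols included. These 23185 entered a linear model of genotype alone in limma 3.58.1 (R 4.3.3), with moderated 2-sided tests, without a filter, with Benjamini-Hochberg adjustment over all of them and a threshold of 0.05. Precision is limited by the number of arrays. The fit was tested on simulated data with independent normal noise. No simulated array stood apart as single arrays do here, so this checks the calculation and not its fit to these arrays. Errors are SD over 3 arrays or limma's moderated SE. Class means and pair ratios were not tested.

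The genes named with every array are the immunoproteasome and PA28 genes, Psmb6, Psmb7, and the highest and lowest difference of each class; Psma4, Psme4, Psmd14, Irf1 and other genes given with values were added after their values were seen. The members, gene lists and tests were chosen with earlier results of these data known. The pair of Psmb8 and Psmb5 was planned but could not be formed, and protein sequences were not used here. A further motif that was searched is not reported here. The labels do not state whether replicate numbers pair the arrays, and the main fit did not pair them. Deviations of same-numbered arrays correlated at -0.05, -0.0027 and 0.04 over all genes, which does not settle the question. The alternatives were a replicate block, quantile normalization, median centring, array weights, trend and robust variance, leaving out the dimmest genes, testing all probe sets, and leaving out each array.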

Additional observations from a re-analysis of the deposited data

How the results depend on the processing

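Over 13 alternatives, no proteasome gene passed the threshold, and the number of genes passing over all genes was 1 (Babam1) in each, the replicate block included. With the replicate block 0 of the 48 proteasome genes had an unadjusted p under 0.05; the same held for every other alternative except that without Merit40-/- replicate 1, where Psma5, a gene of low signal, had an unadjusted p of 0.0373. Class means and pair ratios moved by less than the array SD pooled over both genotypes, but this is a wide limit. Leaving out 1 array cannot move a mean past it, so for those alternatives the limit checks nothing. With 1 array left out, the mean difference changed sign in 7 of 9 classes, all but PA28 and the other activators and inhibitor. The mean over all 48 genes, -0.02 with all arrays, then lay between -0.08 and 0.03, and that of the immunoproteasome subunits between -0.04 and 0.19. The number of proteasome genes lower in Merit40-/-, an alternative set chosen after seeing the data, was 27 with the block, 28 with quantile normalization, 24 with median centring and 28 with array weights.

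Of 21 genes followed singly, 8 changed the sign of their difference in 12 of 271 alternative values. Psme2 turned to -0.017 with quantile normalization and to -0.031 with array weights. With 1 array left out, the lowest and highest differences were -0.033 and 0.17 for Psmb10, -0.031 and 0.19 for Psmb8, -0.053 and 0.20 for Psmb9, -0.23 and 0.13 for Psme2, -0.17 and 0.0089 for Psmf1, -0.13 and 0.24 for Psmd2, -0.059 and 0.46 for Psma8, and -0.10 and 0.25 for Psme3ip1. None of these differences passed the test with all arrays, so none is a change of a called direction. The cause was not tested. The low signal of Psma5 and Psmb11 limits what their differences can show.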
